A study of Mus musculus with 16 samples.

Results

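Small intestinal organoids that lacked Atg16l1 in the epithelium were compared with organoids that kept it, both after stimulation with IL-22. The 8 cultures compared were all those labelled as IL-22-treated among the 16 of the study, 4 named KO and 4 named WT, and all 12559 genes that passed a filter on low counts were described. KO cultures came from Villin-cre mice with floxed Atg16l1 alleles (Atg16l1dIEC, also written ΔIEC), in which Cre is driven by the Villin promoter of intestinal epithelial cells, and WT cultures from littermates with the same floxed alleles and no Cre (Atg16l1 fl/fl). All mice were on a C57BL/6 background and 8 to 12 weeks old. The cultures were given recombinant murine IL-22 at 10 ng/ml for 24 h, and the other 8 cultures of the study were untreated controls of the same organoid lines. The labels number 2 organoid lines in each genotype, each with 2 cultures, and do not state whether the lines of a genotype came from different mice. Genotype and line of origin therefore cannot be told apart by any single line pair, and a gene was called only where the adjusted p was under 0.01 and both KO lines lay on the same side of both WT lines.

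ATG16L1 is part of the complex that joins LC3 to lipid on the growing autophagosome, the vesicle by which a cell encloses and degrades parts of its cytoplasm, and in the intestine it is best known for its role in Paneth cells, the granule-filled antimicrobial cells of the crypt base. IL-22, a cytokine released by lymphoid cells, acts on epithelium through IL22RA1 and STAT3 and raises antimicrobial proteins of the Reg3 family. Type I and type III interferons act through their receptors on genes that carry an interferon-stimulated response element (ISRE) near their start.

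Libraries of the IL-22-treated cultures held 2573720 to 5574860 counts on genes, 36.3% to 37.8% of the counted reads, and levels are given as CPM, these counts scaled to a common library size by edgeR. Each set of 4 values lists the first and second culture of line 1 and then those of line 2. The deleted gene matched the labels: Atg16l1 (chr1:87755870-87792428, plus strand, GRCm38) stood at 0.8101, 5.96, 0.302 and 0.289 CPM in KO and 39.2, 39.96, 51.8 and 48.8 CPM in WT cultures (log2 fold change -4.51, SE 0.38, adjusted p = 2.25e-07). The second culture of KO line 1 kept the most Atg16l1 reads of the KO cultures, 21 counts against 1 or 2 in the others, and the counts of the KO line 1 cultures also differed most from each other, with a chi-square per degree of freedom of 6.82 against 1.51 to 2.29 in the other 3 IL-22-treated pairs. Markers of cells that an epithelial culture should lack were low. The 22 immune cell markers summed to 34.7 to 38.8 CPM in KO and 25.0 to 31.0 CPM in WT cultures, with Cd3e, Itgax, Nkg7 and S100a8 at 0 in all 8, and the 19 stromal and vascular markers to 5.67 to 11.8 and 10.9 to 13.2 CPM, with Acta2, Dcn, Col3a1, Col6a1, Cdh5 and Kdr at 0 in all 8.

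With IL-22 present, 1243 genes were higher (9.9% of the genes tested) and 1236 lower (9.84%) in KO than in WT cultures, together 19.7% of the genes. The changes were mostly of modest size. The median absolute log2 fold change of the called genes was 0.64, 732 of them differed by less than 0.5, and 185 of the higher and 392 of the lower genes differed by at least 1. The 4 KO values lay wholly above or below the 4 WT values for 1182 of the higher and 1154 of the lower genes, where 29.6% of all tested genes showed no overlap. Of the called genes, 2339 were protein-coding. The plot of fold change against level shows both directions over the whole range of expression.

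**Figure D1:**
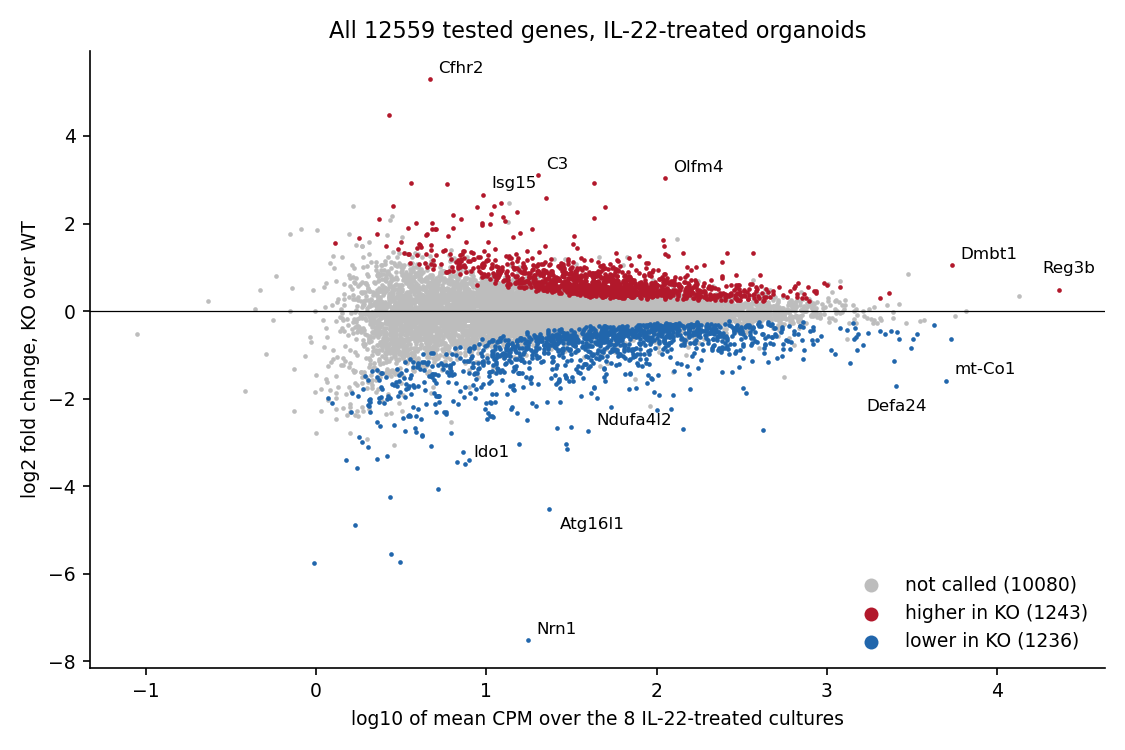
Log2 fold change of KO over WT cultures with IL-22 (vertical axis) against the log10 of the mean CPM over the 8 cultures (horizontal axis), 1 dot per tested gene. The 1243 genes called higher are red, the 1236 called lower are blue, and Atg16l1 lies at -4.51.

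The lines of a genotype differed far less than the genotypes did. KO line 1 differed from WT line 1 at 3129 genes and from WT line 2 at 3190, and KO line 2 from the same lines at 1669 and 1900, whereas the KO lines differed from each other at 448 genes (3.57%) and the WT lines at 320 (2.55%). These counts were 24.9%, 25.4%, 13.3% and 15.1% of the genes tested. Of the called genes, 363 higher and 433 lower genes passed the threshold in each of the 4 line pairs. Fold changes were larger in KO line 1 than in KO line 2 for 76.6% of the called genes, with a median absolute log2 fold change of 0.73 in line 1 and 0.55 in line 2. Without KO line 1, 400 higher and 550 lower genes were called and 35.05% of the calls remained, and after pooling each line's cultures into 1 library, which leaves 2 lines against 2, the counts were 56 and 132. Without WT line 1, 760 genes were higher and 1163 lower, and without the second culture of KO line 1 the counts were 881 and 868, with 67.89% of the calls kept. Of the genes named in the text that were called, 40 of 120 lost the call under at least 1 alternative other than the pooling of a line's cultures, and 36 kept it after that pooling. A gene removed by an alternative's own filter on low counts was not counted as lost. Isg15, Oas3, Oas1g and C3, among others, were so removed where every IL-22-treated culture needed at least 10 counts.

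**Figure D2:**
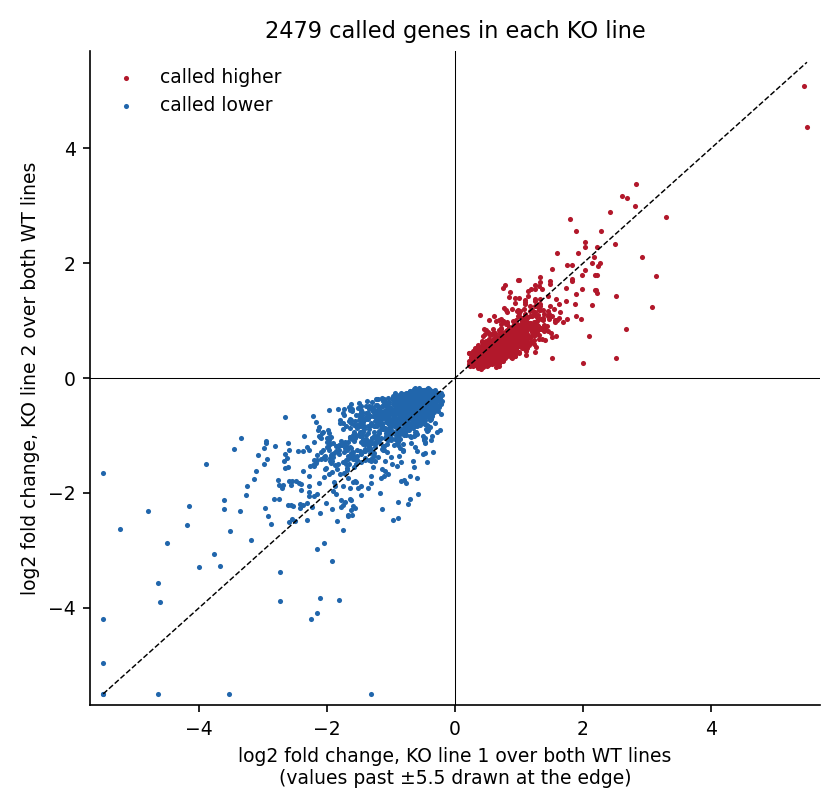
Log2 fold change of the 2479 called genes in KO line 2 (vertical axis) against KO line 1 (horizontal axis), each relative to the mean of both WT lines; values past ±5.5 are drawn at the edge. Every dot has the same sign in both lines, as the call requires, and most lie on the side of the dashed line of equality where KO line 1 shows the larger change.

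Most genes of autophagy other than the deleted one were not called. Of 36 core autophagy genes tested, 5 were lower and none higher, with a median log2 fold change of -0.12 where that of all tested genes was 0.01. The share called was 13.9%, beside 19.7% of all genes. Their summed level, Atg16l1 included, was 1705 to 1743 CPM in KO and 1901 to 1927 CPM in WT cultures, without overlap. Beside Atg16l1 itself, the lower genes were Wipi1, which binds the lipid of the forming autophagosome and stood at 20.3, 17.04, 21.2 and 22.6 CPM in KO and 38.01, 38.6, 32.7 and 36.9 CPM in WT cultures (log2 fold change -0.84, SE 0.12, adjusted p = 4.59e-05), Atg9a, a membrane protein of the vesicles that seed it (log2 fold change -0.71), Atg12, the partner of ATG5 in the complex with ATG16L1 (-0.33), and Vmp1 (-0.45). Atg9a lost the call without KO line 1 (adjusted p = 0.0186) or WT line 2 (0.0155), Atg12 under 10 of the alternatives run (0.0124 to 0.0535) and Vmp1, whose groups overlapped, under 12 (0.0114 to 0.37), for both among them the removal of either KO line. Of 17 cargo receptors, 11.8% were called, beside 19.7% of all genes. Retreg1, a receptor for autophagy of the endoplasmic reticulum, and Bnip3, a receptor on mitochondria, were lower (log2 fold changes -0.78 and -0.38). Both lost the call without KO line 1 (0.0226 and 0.0453). Sqstm1, which encodes the cargo receptor p62, stood at 203, 197, 368 and 311 CPM in KO and 364, 386, 324 and 376 CPM in WT cultures and was not called (adjusted p = 0.0506). Its KO lines differed, with line 1 well below all WT cultures and line 2 in or just under their range. Of 38 lysosomal genes, 2 were higher and 6 lower (21.1% called, beside 19.7% of all genes).

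Interferon-stimulated genes were higher in KO cultures. Of the 44 tested members of this list, 23 were higher and none lower, the median log2 fold change was 0.73, and their summed level was 2537 to 3260 CPM in KO and 1965 to 2145 CPM in WT cultures. The ISRE, searched on both strands as GAAA, 2 bases of any kind and GAAA in the 250 bases before and 50 bases after the start of each gene (RefSeq sequences, build GRCm38), was found in the promoters of 12 of the 20 higher members that had a sequence (60.0%), of 18 of the 37 tested members that had one (48.6%), and of 3.68% of all tested genes. Since the list holds interferon-stimulated genes, its high share describes the choice of members and not these cultures. Among all called genes the share with an ISRE was 5.08% of the higher and 3.90% of the lower genes, with the members of this list included. A STAT site, searched as TTCNNNGAA, was in 8.67% of the promoters of higher genes, 8.69% of lower genes and 8.13% of all tested genes. The stretches that hold the motif are printed for 6 higher members described in the next paragraphs, read 5′ to 3′ on the strand of the gene, with the motif or its reverse complement in capitals and overlapping matches joined.

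Isg15: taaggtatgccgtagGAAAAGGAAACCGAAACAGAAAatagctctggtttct
Oas3: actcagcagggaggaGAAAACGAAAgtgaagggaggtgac
Oas1a: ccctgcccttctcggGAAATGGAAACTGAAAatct
Oas1g: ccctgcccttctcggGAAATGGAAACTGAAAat
Rsad2: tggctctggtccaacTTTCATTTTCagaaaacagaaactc
Ifit1: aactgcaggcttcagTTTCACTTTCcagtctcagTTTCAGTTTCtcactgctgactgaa

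The stretch of Isg15 lies at chr4:156200860-156200911 on the minus strand and begins its motif 78 bases before the start, that of Oas3 at chr5:120777710-120777749 on the minus strand, those of Oas1a and Oas1g at chr5:120907526-120907560 and chr5:120887614-120887646 on the minus strand, that of Rsad2 at chr12:26456548-26456587 on the minus strand, and that of Ifit1 at chr19:34640770-34640828 on the plus strand. Oas1a and Oas1g carry the same letters over the whole length that both stretches cover. The stretches lie before the start of each gene. How alike the counted transcripts are was not measured, so the share of reads of each of these neighbouring genes is uncertain. The match of a motif describes the sequence and not the binding of a factor.

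Isg15 encodes a ubiquitin-like protein that is joined to other proteins after interferon. It stood at 17.8, 10.5, 11.5 and 26.3 CPM in KO and 2.38, 4.21, 1.88 and 1.798 CPM in WT cultures (log2 fold change 2.66, SE 0.38, adjusted p = 3.85e-05). Every KO culture lay above every WT culture, and each KO line had 1 higher and 1 lower culture. Oas3, which makes the oligoadenylates that activate RNase L, stood at 11.7, 8.52, 12.7 and 26.3 CPM in KO and 2.38, 3.04, 2.44 and 3.595 CPM in WT cultures (log2 fold change 2.37, SE 0.33, adjusted p = 3.55e-05). Oas1a of the same family stood at 20.3, 18.5, 23.9 and 37.04 CPM in KO and 6.73, 5.84, 4.13 and 4.49 CPM in WT (log2 fold change 2.27, SE 0.31, adjusted p = 3.21e-05). Its neighbour Oas1g stood at 10.1, 9.37, 10.6 and 11.6 CPM in KO and 1.98, 1.64, 1.13 and 0.899 CPM in WT (log2 fold change 2.90, SE 0.27, adjusted p = 5.74e-07). All 3 Oas genes had groups that did not overlap. Reads were few in WT cultures, with 6, 18, 10 and 6 counts of Isg15 and 6, 13, 13 and 12 of Oas3. Oas1g had 5, 7, 6 and 3 counts there and Rsad2 2, 9, 13 and 11. Rsad2, which encodes the antiviral enzyme viperin, rose by a log2 fold change of 2.19 (adjusted p = 0.000196), and Ifitm3, which blocks viral entry, by 1.10 (adjusted p = 2.25e-07). Lgals9, the lectin galectin-9 and the most abundant member named here, rose by 0.47 from 496 to 520 CPM in WT to 650 to 754 CPM in KO cultures.

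Irf7, the factor that amplifies interferon genes, stood at 39.3, 32.1, 40.5 and 56.1 CPM in KO and 17.8, 17.8, 19.5 and 18.9 CPM in WT cultures (log2 fold change 1.18, SE 0.23, adjusted p = 0.000645). KO line 2 lay above KO line 1, and the groups did not overlap. Ifit1, an RNA-binding protein of the infected cell, stood at 19.4, 10.5, 9.37 and 26.04 CPM in KO and 5.15, 7.71, 4.13 and 7.49 CPM in WT cultures (log2 fold change 1.41, SE 0.37, adjusted p = 0.00595), with its groups apart but the KO cultures of each line far from each other. Irf7 lost the call without KO line 2 (adjusted p = 0.0186) and Ifit1 without KO_IL22 replicate 1 (0.0176), KO_IL22 replicate 4 (0.0373), WT_IL22 replicate 1 (0.0157) or WT_IL22 replicate 3 (0.0275), as well as without KO line 1 or either WT line. As a list, 18 members were higher without KO line 1, 17 without KO line 2, 15 without WT line 1, 14 without WT line 2, and 7 after pooling each line's cultures. A lower member appeared only without WT line 1, where 1 was called.

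In untreated cultures, where 3.78% of all genes tested were higher and 5.98% lower in KO than in WT cultures, the same list had 5 higher and no lower members, with a median log2 fold change of 0.14. For single members the untreated log2 fold change was 1.64 for Isg15, 1.04 for Oas3, 2.52 for Oas1g, -0.14 for Irf7 and -0.12 for Ifit1. It was 1.46 for Oas1a, 2.03 for Rsad2, 1.24 for Ifitm3 and 0.27 for Lgals9, where the values with IL-22 were 2.27, 2.19, 1.10 and 0.47. Oas1g and Ifitm3 were among the 5 called untreated. With IL-22, 40 of the 44 members had the larger KO over WT value. No member passed the threshold of the interaction test, which asks whether the fold changes with and without IL-22 differ and which 0.0159% of all genes passed, either without the organoid line as a block or with it: for Irf7 the interaction was 1.32 on the log2 scale (adjusted p = 0.301, and 0.016 with the line as a block).

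**Figure D3:**
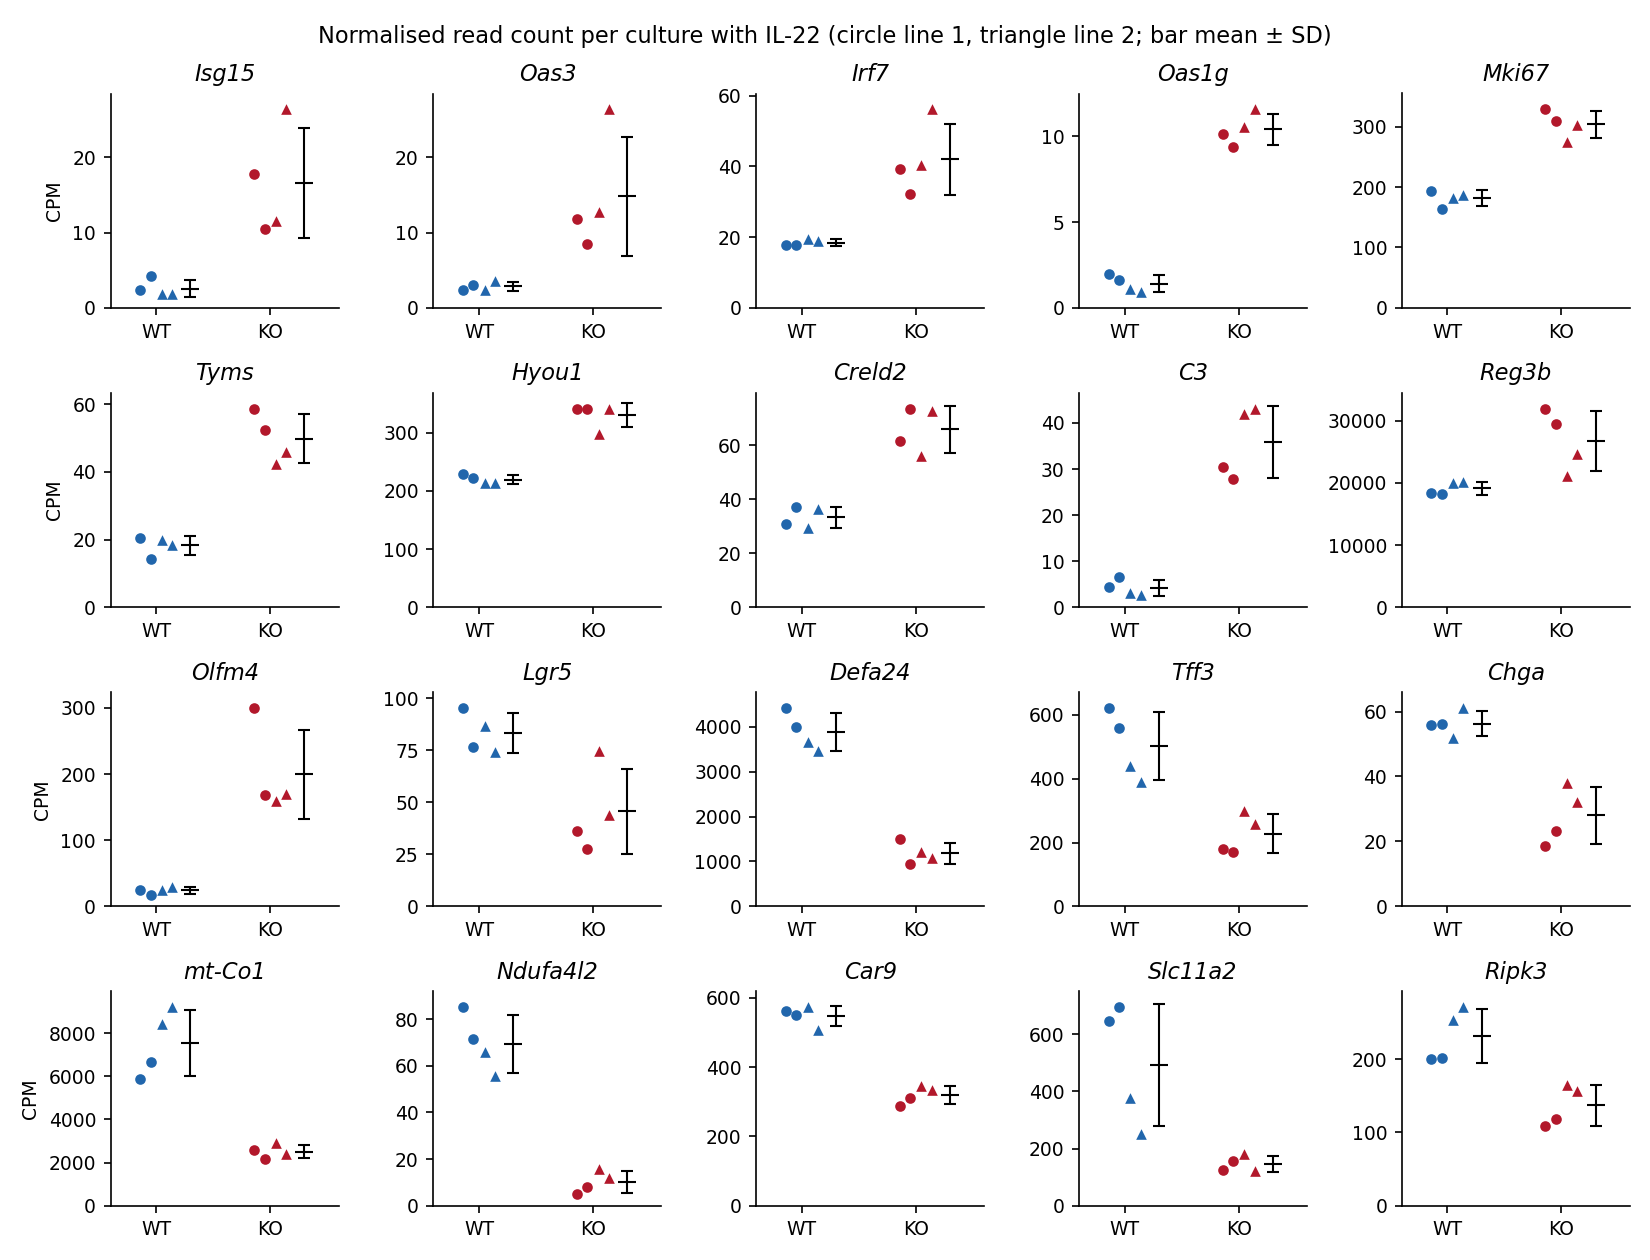
CPM of 20 genes in each IL-22-treated culture, WT in blue and KO in red, circles for line 1 and triangles for line 2, with the mean and SD as a bar to the right. Isg15, Oas3, Irf7 and Oas1g lie wholly above the WT values in KO cultures and Defa24, Tff3, Chga, mt-Co1 and Ripk3 wholly below them, while the KO values of Lgr5 reach the WT range.

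Of 19 tested genes of nucleic acid sensing, 2 were higher and 2 lower, which is 21.1% of them beside 19.7% of all genes. The higher ones were Tmem173, which encodes STING, the adaptor that responds to the cyclic dinucleotide made by cGAS, at 38.1, 60.5, 55.3 and 63.95 CPM in KO and 27.7, 35.99, 28.3 and 26.97 CPM in WT cultures (log2 fold change 0.88, SE 0.18, adjusted p = 0.000999), and Rnaseh2c, a subunit of the enzyme that removes RNA from DNA hybrids (log2 fold change 0.55). Lower was Mavs, the adaptor of RNA sensors on mitochondria, at 36.5, 48.9, 34.5 and 41.7 CPM in KO and 57.8, 58.9, 66.1 and 58.1 CPM in WT (log2 fold change -0.58, SE 0.10, adjusted p = 0.000316). The other was Irf3, the factor downstream of both adaptors (log2 fold change -0.54, adjusted p = 0.00711). Tbk1, the kinase between them, was not called (log2 fold change 0.11, adjusted p = 0.446). Tmem173 lost the call without KO line 2 (0.012) or WT line 2 (0.0183), Rnaseh2c without KO line 2 (0.0136) or WT line 1 (0.0161), and Irf3 under 10 of the alternatives run (0.0111 to 0.128), among them the removal of either KO line, of WT line 2, of KO_IL22 replicate 1, 3 or 4 and of WT_IL22 replicate 3 or 4. Of 31 genes of NF-κB signalling, cytokines and chemokines, 7 were higher and 1 lower (25.8% called, beside 19.7% of all genes). Without KO line 2 the counts were 3 and 3. Icam1, the adhesion molecule that leukocytes bind, stood at 15.8, 21.3, 20.2 and 24.3 CPM in KO and 4.36, 4.44, 4.88 and 4.49 CPM in WT cultures (log2 fold change 2.16, SE 0.26, adjusted p = 7.51e-06), with no overlap between the genotypes. Cx3cl1, a membrane-bound chemokine, was the lower one (log2 fold change -0.65). Tnf, the cytokine, stood at 13.8, 18.5, 26.6 and 24.6 CPM in KO and 12.3, 15.2, 13.7 and 11.98 CPM in WT cultures and was not called (adjusted p = 0.0579), with KO line 2 above all WT cultures and KO line 1 overlapping them. MHC class I and immunoproteasome genes gave 4 higher and 4 lower members of 29 (27.6% called, beside 19.7% of all genes). The higher ones included the proteasome activator Psme1 (log2 fold change 0.45, not called without KO line 1, adjusted p = 0.0587), and the lower ones were 4 H2-Q genes, near-identical copies whose counts are uncertain, among them H2-Q10 at 50.2, 51.7, 56.5 and 47.7 CPM in KO and 95.4, 98.6, 118 and 94.98 CPM in WT cultures (log2 fold change -0.99, SE 0.10, adjusted p = 1.28e-06).

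Of 39 genes of cell death, 2 were higher and 3 lower, which is 12.8% of them beside 19.7% of all genes. Their summed level was 2868 to 3059 CPM in KO and 3133 to 3159.6 CPM in WT cultures, without overlap. Mlkl, the protein that breaks the membrane in necroptosis, stood at 46.6, 40.9, 53.8 and 59.6 CPM in KO and 26.9, 23.1, 18.96 and 18.9 CPM in WT cultures (log2 fold change 1.21, SE 0.15, adjusted p = 8.71e-06). Its groups did not overlap. Ripk3, the kinase that activates MLKL, stood at 108, 119, 164 and 156 CPM in KO and 199.6, 201, 254 and 271 CPM in WT cultures (log2 fold change -0.76, SE 0.13, adjusted p = 0.000216), also without overlap and in the opposite direction. Casp8, the protease that restrains necroptosis, was lower (log2 fold change -0.43) and lost the call without KO line 1 or WT line 1. Ripk1 was not called (log2 fold change 0.07, adjusted p = 0.587).

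The receptor and the signal transducer of IL-22 did not pass the test, while part of the IL-22 target list was higher. Il22ra1, the receptor chain, stood at 26.7, 29.3, 33.2 and 32.99 CPM in KO and 23.8, 26.9, 27.03 and 29.1 CPM in WT cultures (adjusted p = 0.18), Stat3 had a log2 fold change of -0.09 (0.46), and Socs3, its feedback inhibitor, one of -0.40 (0.0169). Of 34 tested receptor and target genes, 11 were higher and 1 lower (35.3% called, beside 19.7% of all genes), with a median log2 fold change of 0.22. C3, the central component of complement, which is on none of the lists, stood at 30.4, 27.8, 42.01 and 43.1 CPM in KO and 4.36, 6.54, 3.004 and 2.697 CPM in WT cultures (log2 fold change 3.10, SE 0.25, adjusted p = 1.72e-07). Ptgs2, the inducible cyclooxygenase, stood at 36.05, 20.7, 25.7 and 34.4 CPM in KO and 8.31, 10.98, 4.13 and 8.69 CPM in WT cultures (log2 fold change 1.88, SE 0.25, adjusted p = 2.49e-05). Fut2, which adds fucose to epithelial glycans, stood at 185, 252, 158 and 216 CPM in KO and 87.1, 108, 96.9 and 108 CPM in WT (log2 fold change 1.01, SE 0.14, adjusted p = 3.62e-05). These 3 genes had no overlap between groups. Each kept its call under every alternative that tested it, including the pooling of each line's cultures. C3, with 9 counts in the second culture of WT line 2, was not tested where every IL-22-treated culture needed at least 10 counts. Nos2, the inducible nitric oxide synthase, rose by 1.32, Lrg1, a secreted glycoprotein of the acute phase, by 1.30, Duoxa2, the maturation factor of an epithelial oxidase, by 1.05, and Saa3, an acute-phase apolipoprotein, by 1.38, the last without a call when KO line 2 (0.011) or WT line 1 (0.0216) was left out. Reg4, a lectin of secretory cells, was the lower one (log2 fold change -1.04, SE 0.15, adjusted p = 5.00e-05).

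The abundant antimicrobial lectins differed less. Reg3b, which binds bacteria and was the most abundant gene named here, stood at 31959, 29485, 21162 and 24691 CPM in KO and 18333, 18179, 20000.0 and 20131 CPM in WT cultures (log2 fold change 0.49, SE 0.11, adjusted p = 0.00269), with KO line 1 well above and KO line 2 just above the WT values. It lost the call without KO line 1 (adjusted p = 0.123), without WT line 1 (0.0332) and without KO_IL22 replicate 2 (0.0128). Reg3g, its close relative, stood at 18222, 16805, 11747 and 13647 CPM in KO and 11402, 11327, 12676 and 12248 CPM in WT and was not called (adjusted p = 0.0528). Dmbt1, a scavenger receptor secreted into mucus and the most abundant gene with a log2 fold change of at least 1, stood at 7320.4, 8415, 5910.1 and 7840.2 CPM in KO and 3832, 3896, 3182 and 3290.5 CPM in WT cultures (log2 fold change 1.05, SE 0.14, adjusted p = 2.97e-05). In untreated cultures Dmbt1 was also higher (log2 fold change 1.91), whereas the untreated log2 fold changes of Fut2, Saa3 and Duoxa2 were -0.95, -1.19 and -0.16 and were not called. As a list the IL-22 genes had 2 higher and 2 lower members without IL-22.

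Proliferation genes were higher in KO cultures, 30 of 40 with none lower, at a median log2 fold change of 0.76. Their summed level was 3587 to 4478 CPM in KO and 2064 to 2678 CPM in WT cultures. Tyms, the thymidylate synthase of DNA replication, stood at 58.7, 52.3, 42.3 and 46.01 CPM in KO and 20.6, 14.3, 19.9 and 18.3 CPM in WT cultures (log2 fold change 1.45, SE 0.17, adjusted p = 6.83e-06). Mki67, the marker of cycling cells, stood at 328, 309, 275 and 303 CPM in KO and 194, 164, 181 and 187 CPM in WT (log2 fold change 0.74, SE 0.10, adjusted p = 2.73e-05). Plk1, a kinase of mitosis, stood at 93.97, 116, 88.2 and 84.5 CPM in KO and 40.4, 41.4, 53.1 and 48.8 CPM in WT (log2 fold change 1.05, SE 0.13, adjusted p = 1.31e-05). Groups did not overlap for these 3 genes, and 26 of the 30 higher members passed the threshold in each of the 4 line pairs. Mcm3, a subunit of the replicative helicase, rose by 0.94, Rrm1, the large subunit of ribonucleotide reductase, by 1.02, and Cdc20, an activator of the anaphase-promoting complex, by 0.93. Pcna, the sliding clamp of replication, did not (log2 fold change -0.09, adjusted p = 0.419). Without KO line 1, 15 members were higher, and after pooling each line's cultures 1 was. Untreated, 10 members were higher at a median of 0.46, with no interaction past the threshold, or 1 with the line as a block.

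Stem cell and Wnt target genes split. Of 25 tested, 4 were higher and 3 lower, which is 28% of them beside 19.7% of all genes. Olfm4, a secreted glycoprotein of crypt-base stem cells, stood at 300.1, 169, 159 and 170.2 CPM in KO and 25.3, 16.6, 25.5 and 29.7 CPM in WT cultures (log2 fold change 3.04, SE 0.32, adjusted p = 2.37e-06), with every KO culture far above every WT culture and the first culture of KO line 1 the highest. Ascl2, a transcription factor of these cells, stood at 20.7, 26.1, 30.2 and 27.5 CPM in KO and 7.52, 11.2, 13.5 and 11.7 CPM in WT (log2 fold change 1.21, SE 0.16, adjusted p = 1.81e-05). Lgr5, the receptor that defines them, stood at 36.5, 27.6, 74.6 and 43.99 CPM in KO and 95.4, 76.7, 86.5 and 74.3 CPM in WT cultures (log2 fold change -0.86, SE 0.23, adjusted p = 0.00672). One KO culture of line 2 reached the WT range, and Lgr5 lost the call without any 1 of KO_IL22 replicates 1, 2 and 4 or WT_IL22 replicates 1, 2 and 3 (adjusted p = 0.0106 to 0.0283), without KO line 1 (0.0611) and without either WT line. Cd44 (log2 fold change 0.88) and Smoc2 (0.38) were the other higher genes, and Rnf43 (-0.46) and Tnfrsf19 (-1.17) the other lower ones. Cd44 and Ascl2 kept the call under every alternative run, Rnf43 and Tnfrsf19 lost it without KO line 1 (adjusted p = 0.0187 and 0.0307), and Smoc2 lost it under 11 alternatives (0.0101 to 0.0563).

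Markers of the secretory lineages were lower, and in RNA from whole cultures fewer cells of a type and less RNA per cell cannot be told apart. Of 23 Paneth cell markers tested, 15 were lower and none higher, at a median log2 fold change of -1.08, and their sum was 4774 to 5795 CPM in KO and 9146 to 12070 CPM in WT cultures. Defa24, an α-defensin of Paneth granules, stood at 1489, 948, 1222 and 1083 CPM in KO and 4417, 3992, 3652 and 3452 CPM in WT cultures (log2 fold change -1.71, SE 0.16, adjusted p = 7.66e-07). Defa23 stood at 48.6, 33.5, 40.2 and 47.5 CPM in KO and 225, 195, 196 and 181 CPM in WT (log2 fold change -2.24, SE 0.16, adjusted p = 6.61e-08). Itln1, a lectin of Paneth and goblet cells, stood at 693, 725, 821 and 710.1 CPM in KO and 1587, 1425, 1306 and 1144 CPM in WT cultures (log2 fold change -0.89, SE 0.09, adjusted p = 2.50e-06). The groups of these 3 genes were far apart, and each kept its call under every alternative run. The defensin genes are near-identical copies, so the share of each is uncertain, and 9 of the 15 lower markers were defensins. Mmp7, the protease that activates defensins, was lower (log2 fold change -0.70, adjusted p = 0.00395) and lost the call without KO line 1 (0.036), WT line 1 (0.0286) or any of replicates 1 and 2 of either group. Lyz1, the lysozyme of Paneth cells, stood at 1853, 1753, 1866 and 1619.7 CPM in KO and 2324, 2259, 1905 and 1648 CPM in WT cultures and was not called (adjusted p = 0.22). The list had 11 lower and 1 higher member without KO line 1, and 15 lower members untreated.

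Goblet cell markers gave 13 lower and no higher members of 22, at a median of -0.92, and a sum of 1496 to 2286 CPM in KO and 2816 to 3833 CPM in WT cultures. Tff3, a trefoil peptide of mucus, stood at 181, 171, 298 and 258 CPM in KO and 622, 559, 440.4 and 391 CPM in WT cultures (log2 fold change -1.14, SE 0.20, adjusted p = 0.000264). Fcgbp, a mucin-bound glycoprotein, stood at 314, 388, 638 and 494 CPM in KO and 1156, 1251, 809 and 735 CPM in WT (log2 fold change -1.10, SE 0.20, adjusted p = 0.000443). In both, KO line 1 was lower than KO line 2, and WT line 1 higher than WT line 2. Muc2, the gel-forming mucin, stood at 66.8, 71.3, 118 and 100.1 CPM in KO and 133, 151, 147 and 159.7 CPM in WT cultures (log2 fold change -0.72, SE 0.16, adjusted p = 0.00169). Guca2a, the peptide guanylin, fell by a log2 fold change of 1.13 and Bcas1 by 2.31, and both kept their call in each line left out. Of these, Tff3, Fcgbp and Muc2 lost the call without KO line 1 (adjusted p = 0.0137, 0.0229 and 0.0217), and Muc2 also without WT line 2 (0.0136). Without KO line 1 the list had 3 lower members, and it had none after pooling each line's cultures.

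Enteroendocrine markers gave 7 lower and no higher members of 17 (41.2% called, beside 19.7% of all genes). Their sums were 323 to 624 CPM in KO and 662 to 901 CPM in WT cultures. Chga, chromogranin A of the hormone granules, stood at 18.6, 23.3, 38.1 and 32.1 CPM in KO and 55.8, 56.1, 51.8 and 61.1 CPM in WT cultures (log2 fold change -0.98, SE 0.21, adjusted p = 0.00128). Nts, the peptide neurotensin, stood at 7.29, 6.53, 21.2 and 13.9 CPM in KO and 34.8, 42.3, 42.99 and 46.7 CPM in WT (log2 fold change -1.76, SE 0.23, adjusted p = 2.33e-05). No KO culture reached the lowest WT culture in either, and KO line 1 was the lower KO line in both. Scg2 (log2 fold change -1.39), Pcsk1 (-1.15), Gip (-1.14) and Gcg (-1.22) were also lower, and each lost the call without KO line 1, where 2 members were lower. Gcg, whose groups overlapped, lost it under 11 of the alternatives run. The 17 tuft cell markers were near the limit of detection, with 4 tested and none called, summed levels of 20.7 to 43.2 CPM in KO and 28.9 to 44.0 CPM in WT cultures, and Gnat3 and Il25 at 0 in all 8.

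Chaperones of the endoplasmic reticulum were higher as single genes, although the list's sum overlapped between genotypes at 12396 to 13631 CPM in KO and 12314 to 13729 CPM in WT cultures. Of 39 tested genes of the unfolded protein response, 17 were higher and 3 lower, at a median log2 fold change of 0.24. The share called was 51.3%, beside 19.7% of all genes. Creld2, a stress-induced disulphide isomerase, stood at 61.6, 73.6, 55.9 and 72.6 CPM in KO and 30.9, 37.2, 29.3 and 36.3 CPM in WT cultures (log2 fold change 0.98, SE 0.12, adjusted p = 7.51e-06). Hyou1, a large chaperone of the lumen, stood at 341, 341, 299 and 341 CPM in KO and 228, 223, 213 and 214 CPM in WT (log2 fold change 0.59, SE 0.07, adjusted p = 7.51e-06). Dnajb11, a co-chaperone of BiP, stood at 179.8, 164, 139 and 147 CPM in KO and 110.5, 97.5, 87.1 and 89.6 CPM in WT cultures (log2 fold change 0.72, SE 0.11, adjusted p = 5.92e-05). The groups did not overlap in any of the 3. Pdia4 (log2 fold change 0.52), Sec61a1, a channel subunit of the translocon (0.43), and Atf6b (0.53) also rose. Hspa5, which encodes BiP, the main chaperone, stood at 1188, 1057, 1024 and 1122 CPM in KO and 998, 988, 891 and 853 CPM in WT cultures, a gap without overlap that missed the threshold (adjusted p = 0.0157). Xbp1, the spliced factor of the IRE1 branch, was not called (log2 fold change -0.15, adjusted p = 0.153), and its splicing was not measured. The lower members were Ern1, which encodes IRE1 itself (log2 fold change -0.58, lost without KO line 1, KO_IL22 replicate 4 or WT_IL22 replicate 3), Ero1l, an oxidase of the lumen (-0.85), and Edem1 (-0.29, lost under 14 of the alternatives run). Without KO line 1, 10 members were higher and 1 lower, and 1 was higher after pooling each line's cultures.

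The integrated stress response gave 3 higher and 10 lower members of 37 (35.1% called, beside 19.7% of all genes). Ddit3, which encodes the factor CHOP, stood at 23.5, 24.7, 52.6 and 30.4 CPM in KO and 78, 74.6, 74.3 and 76.1 CPM in WT cultures (log2 fold change -1.19, SE 0.18, adjusted p = 8.52e-05). The WT values were close together and all above the KO values. Atf3 stood at 24.7, 30.7, 33.8 and 23.7 CPM in KO and 50.7, 44.2, 50.9 and 52.1 CPM in WT cultures (log2 fold change -0.80, SE 0.13, adjusted p = 0.000196). Atf4, the central factor, was not called (log2 fold change -0.02, adjusted p = 0.797). The higher members were Slc7a11, the cystine transporter (0.72), and the serine synthesis enzymes Psat1 (0.42) and Psph (0.38, lost without KO line 1 or WT line 2). Without KO line 1, 2 members were higher and 4 lower.

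Transcripts of the mitochondrial genome were lower in KO cultures with IL-22. Of 8 tested members of the mitochondrially encoded list, 7 were lower, at a median log2 fold change of -1.01. The list summed to 6006 to 7694 CPM in KO and 12301 to 20001 CPM in WT cultures. Of all 12 genes tested on the mitochondrial chromosome, 9 were lower and none higher (75% called, beside 19.7% of all genes). mt-Co1, a subunit of cytochrome oxidase, stood at 2588, 2144, 2899 and 2404 CPM in KO and 5894, 6666, 8423 and 9213 CPM in WT cultures (log2 fold change -1.59, SE 0.15, adjusted p = 5.74e-07). mt-Nd5, a subunit of complex I, stood at 1006, 753, 836 and 758 CPM in KO and 1672, 1781, 1909 and 2251 CPM in WT (log2 fold change -1.18, SE 0.12, adjusted p = 1.35e-06). No KO culture reached the WT values in either, and the WT values spread more than the KO values. mt-Nd4 fell by 1.07 and mt-Cytb, of complex III, by 0.89, the latter losing its call without either KO line. Untreated, 3 of the 8 were lower at a median of -0.24. All 8 had the more negative value with IL-22, and the interaction passed the threshold for none of them, or for 7 with the organoid line as a block (mt-Co1 interaction -0.81, adjusted p = 0.26, or 0.000105 with the block). Of 74 nuclear genes of the respiratory chain, 4 were lower and none higher (5.41% called, beside 19.7% of all genes). Their sums were 15789 to 18265 CPM in KO and 16022 to 18922 CPM in WT cultures.

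Genes of glycolysis and hypoxia were lower, 22 of 38 with none higher, at a median of -0.46 and a sum of 26570 to 34881 CPM in KO and 37791 to 42715 CPM in WT cultures. Ndufa4l2, a hypoxia-induced mitochondrial protein, stood at 4.86, 7.95, 15.7 and 11.9 CPM in KO and 85.1, 71.5, 65.7 and 55.4 CPM in WT cultures (log2 fold change -2.73, SE 0.22, adjusted p = 1.65e-07). Car9, a carbonic anhydrase and standard marker of HIF activity, stood at 288, 310.2, 346 and 335 CPM in KO and 563, 550.1, 573 and 507 CPM in WT (log2 fold change -0.78, SE 0.08, adjusted p = 1.30e-06). Aldoc, an aldolase, stood at 58.3, 75.3, 76.8 and 71.5 CPM in KO and 224, 218, 161 and 127 CPM in WT cultures (log2 fold change -1.36, SE 0.17, adjusted p = 1.15e-05). The 3 genes had no overlap and kept their call under every alternative run. Gpi1, the second enzyme of glycolysis, and Pdk1, a kinase that inhibits pyruvate dehydrogenase, fell by 0.63 and 0.51 on the log2 scale. Hif1a, Ldha and Slc2a1 were not called, with log2 fold changes of 0.14, -0.10 and -0.21 (adjusted p = 0.284, 0.234 and 0.102). Without IL-22, 19 members were lower and none higher. Without KO line 1 and with IL-22, 11 were lower.

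Isx, an intestine-specific homeobox factor that represses vitamin A uptake and conversion, stood at 61.6, 67.03, 77.7 and 97.8 CPM in KO and 8.31, 10.5, 10.1 and 10.5 CPM in WT cultures (log2 fold change 2.93, SE 0.31, adjusted p = 2.52e-06). Rbp2, the retinol carrier of enterocytes, stood at 134, 128, 30.5 and 42.2 CPM in KO and 9.502, 14.96, 16.3 and 21.6 CPM in WT cultures (log2 fold change 2.38, SE 0.41, adjusted p = 0.00025). KO line 1 lay far above KO line 2, which was itself above the WT range, and the call was lost without KO line 1 (adjusted p = 0.0139). Maf, an enterocyte transcription factor, stood at 21.1, 16.8, 21.5 and 17.4 CPM in KO and 51.9, 53.1, 56.3 and 57.2 CPM in WT (log2 fold change -1.52, SE 0.13, adjusted p = 2.25e-07). Of 43 genes of cytochrome P450, retinoid and xenobiotic metabolism, 5 were higher and 9 lower (32.6% called, beside 19.7% of all genes). The KO lines differed here, with a median log2 fold change of 0.20 in line 1 and -0.58 in line 2, and the counts were 12 higher and 7 lower without KO line 2 and 4 and 13 without KO line 1. Adh1, a retinol-oxidising dehydrogenase, stood at 142, 144, 134 and 116 CPM in KO and 457, 436, 284 and 231 CPM in WT cultures (log2 fold change -1.39, SE 0.19, adjusted p = 2.55e-05), whereas it was not called without IL-22 (log2 fold change -0.30), and its interaction of -1.09 passed the threshold only with the line as a block (adjusted p = 0.23 without and 2.52e-07 with the block). The higher members included 3 Akr1c genes, which are closely related copies, among them Akr1c19 (log2 fold change 2.59). Of 16 genes of metal handling, 6 were lower and 1 higher (43.8% called, beside 19.7% of all genes). Slc30a10, the manganese exporter, stood at 105, 109, 203 and 155 CPM in KO and 421, 466, 639 and 566 CPM in WT cultures (log2 fold change -1.87, SE 0.18, adjusted p = 7.93e-07), and Slc11a2, the iron importer DMT1, at 126, 157, 182 and 121 CPM in KO and 647, 695, 378 and 251 CPM in WT (log2 fold change -1.75, SE 0.29, adjusted p = 0.000167). Neither gene overlapped between groups, although the WT lines of Slc11a2 were themselves apart.

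Of 37 genes of sterol and fatty acid synthesis, 14 were lower and 2 higher (43.2% called, beside 19.7% of all genes). Their sums were 10374 to 10784 CPM in KO and 12314 to 13491 CPM in WT cultures. Insig1, the sterol sensor that retains SREBP, stood at 327, 357, 348 and 337 CPM in KO and 491, 511, 515 and 458 CPM in WT cultures (log2 fold change -0.53, SE 0.06, adjusted p = 9.30e-06). Scd1, the stearoyl-CoA desaturase, stood at 206, 193, 171 and 147 CPM in KO and 318, 366, 340.4 and 264 CPM in WT (log2 fold change -0.85, SE 0.11, adjusted p = 2.29e-05). Neither overlapped. Of 30 genes of lipid absorption, 8 were lower and 1 higher (30% called, beside 19.7% of all genes). Lower and higher members numbered 4 and 4 without KO line 2 and 2 and 1 without WT line 2. Their sums overlapped, at 3126 to 4251 CPM in KO and 3582 to 3767 CPM in WT cultures. In the full comparison the lower ones included Scarb1, a receptor for lipoproteins (log2 fold change -1.23), and the sterol transporters Npc1l1 (-0.83), Abcg5 (-0.86) and Abcg8 (-0.77), the last 3 of which lost the call without KO line 2 or WT line 2 (adjusted p = 0.013 to 0.0383). Apoa4, an apolipoprotein of chylomicrons, passed the threshold but not the rule on lines. It stood at 266, 243, 73.1 and 72.3 CPM in KO and 54.2, 61.5, 74.7 and 74.01 CPM in WT cultures (adjusted p = 0.0045), with line 2 within the WT range, and was not called. Among 41 genes of glutathione metabolism and NRF2, 6 were higher and 2 lower (19.5% called, beside 19.7% of all genes). Gsta3, a glutathione transferase, stood at 190.4, 147, 161 and 162 CPM in KO and 71.3, 73.9, 63.1 and 65.6 CPM in WT cultures (log2 fold change 1.27, SE 0.09, adjusted p = 7.07e-08), and Gclm, the modifier of glutathione synthesis, at 156, 123, 124 and 131 CPM in KO and 89.5, 90.7, 83.5 and 82.4 CPM in WT (log2 fold change 0.62, SE 0.10, adjusted p = 0.000127). Both were without overlap, while Nqo1, a standard NRF2 target, was not called (log2 fold change 0.33, adjusted p = 0.029). Brush border genes gave 1 higher and 7 lower members of 35 (22.9% called, beside 19.7% of all genes), against 7 and 9 without KO line 2.

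Some of the largest fold changes rested on a gene that was nearly silent in 1 genotype, and counts are given for these. Nrn1, neuritin, had 2 counts over the 4 KO cultures and 547 over the 4 WT cultures, a ratio of 226 after scaling (95% interval 62.1 to 1867 from counting alone). Its fold change was alike without IL-22 (log2 fold change -6.95). Cyp24a1, the enzyme that degrades active vitamin D, had 3 against 80 counts, a ratio of 21.99 (7.26 to 109). Pyroxd2, an oxidoreductase of mitochondria, had 1 against 81 counts, a ratio of 66.8 (11.7 to 2670). Cfhr2, a relative of complement factor H, had 114 against 3 counts in the opposite direction, a ratio of 46.1 (15.4 to 227). Ido1, which breaks down tryptophan and is itself known as an interferon target, was lower at 1.22, 0.852, 1.51 and 1.16 CPM in KO and 16.6, 8.88, 12.8 and 16.8 CPM in WT cultures (log2 fold change -3.48, SE 0.34, adjusted p = 9.35e-07). Its groups did not overlap, and its direction was opposite to that of the interferon-stimulated list, of which it is not a member. Of the 18 genes tested within 1 Mb of Atg16l1 on either side, 16.7% were called, and of the 97 within 10 Mb 19.6%, close to the 19.7% of all genes.

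Set beside the untreated cultures of the same lines, the genotype difference with IL-22 had more calls. Untreated, 475 genes were higher and 751 lower in KO cultures, 9.76% of the genes tested. The fits share the organoid lines but no culture. Of the genes called with IL-22, 966 were also called untreated in the same direction, 39.0% of the calls with IL-22 and 78.8% of those without, and Clca4b, a member of the chloride channel accessory family, was called in opposite directions (log2 fold change -0.39 with and 0.39 without IL-22), although with IL-22 its call was lost under 7 of the alternatives run (adjusted p = 0.0106 to 0.0489), among them without KO line 1 or WT line 2. The sign without IL-22 was the same for 1211 of the 1243 higher and 1222 of the 1236 lower genes. A difference between both fold changes was found by the interaction test for 2 genes (0.0159%), neither of them called with IL-22, while 912 genes had an unadjusted p under 0.05. With the organoid line as a block the interaction passed for 56 genes, 47 of them among those called with IL-22. The first of the 2 genes was Gpx2, an epithelial glutathione peroxidase, at 2131, 2013, 1831 and 1870.0 CPM in KO and 1851, 1898, 1897 and 1739 CPM in WT cultures under IL-22 (log2 fold change 0.09) and a log2 fold change of 0.98 without it (interaction -0.89, adjusted p = 0.00724, or 1.82e-06 with the block). The second was Mptx2, a pentraxin of Paneth cells, at 69.7, 52.8, 38.4 and 36.8 CPM in KO and 56.6, 44.4, 51.1 and 62.6 CPM in WT under IL-22 (a log2 fold change of -0.13) and a log2 fold change of -3.56 without it (interaction 3.44, adjusted p = 0.00958, or 1.20e-05 with the block). Both genes thus differed by genotype in untreated cultures and overlapped between genotypes with IL-22.

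**Figure D4:**
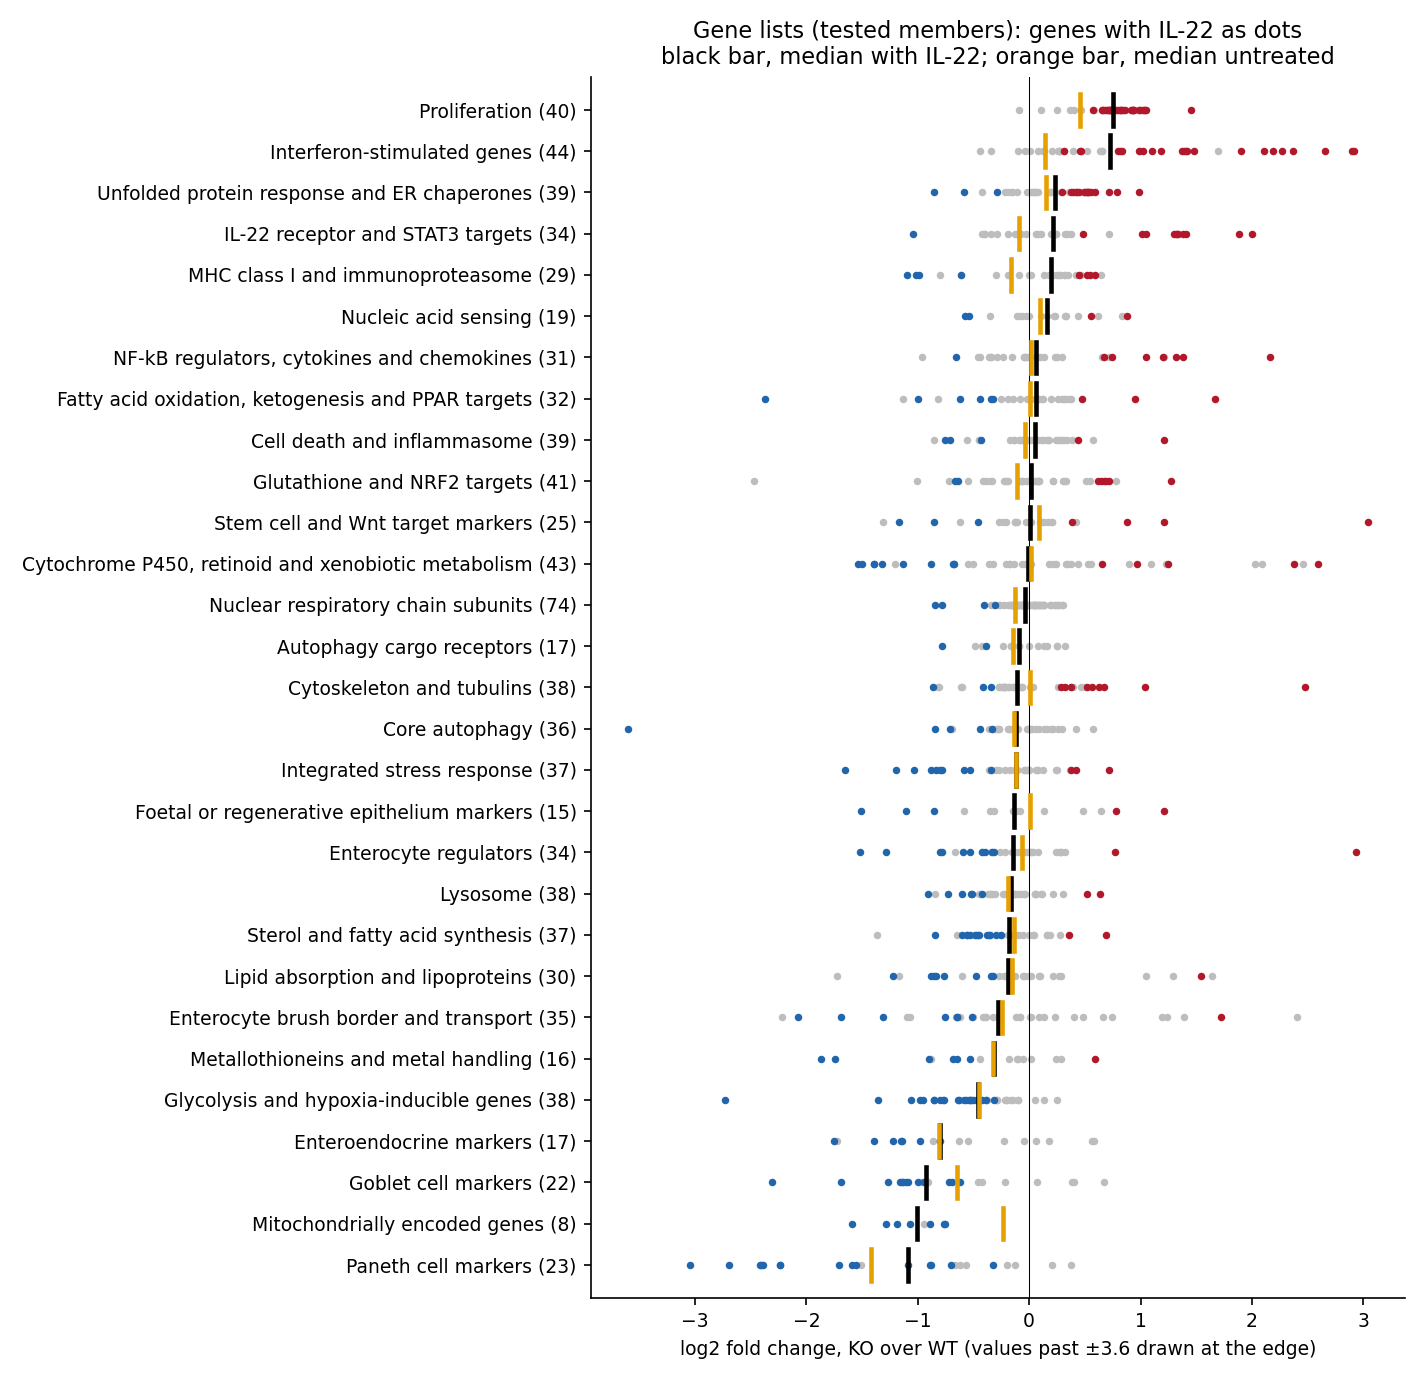
Log2 fold change of KO over WT cultures with IL-22 for the members of each gene list (1 dot per tested gene, red higher, blue lower, grey not called; number tested in brackets), with the median as a black bar and the median of the same genes without IL-22 as an orange bar; values past ±3.6 are drawn at the edge. The bars lie apart for interferon-stimulated genes (0.73 and 0.14), proliferation (0.76 and 0.46) and mitochondrially encoded genes (-1.01 and -0.24) and close together for glycolysis.

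**Figure D5:**
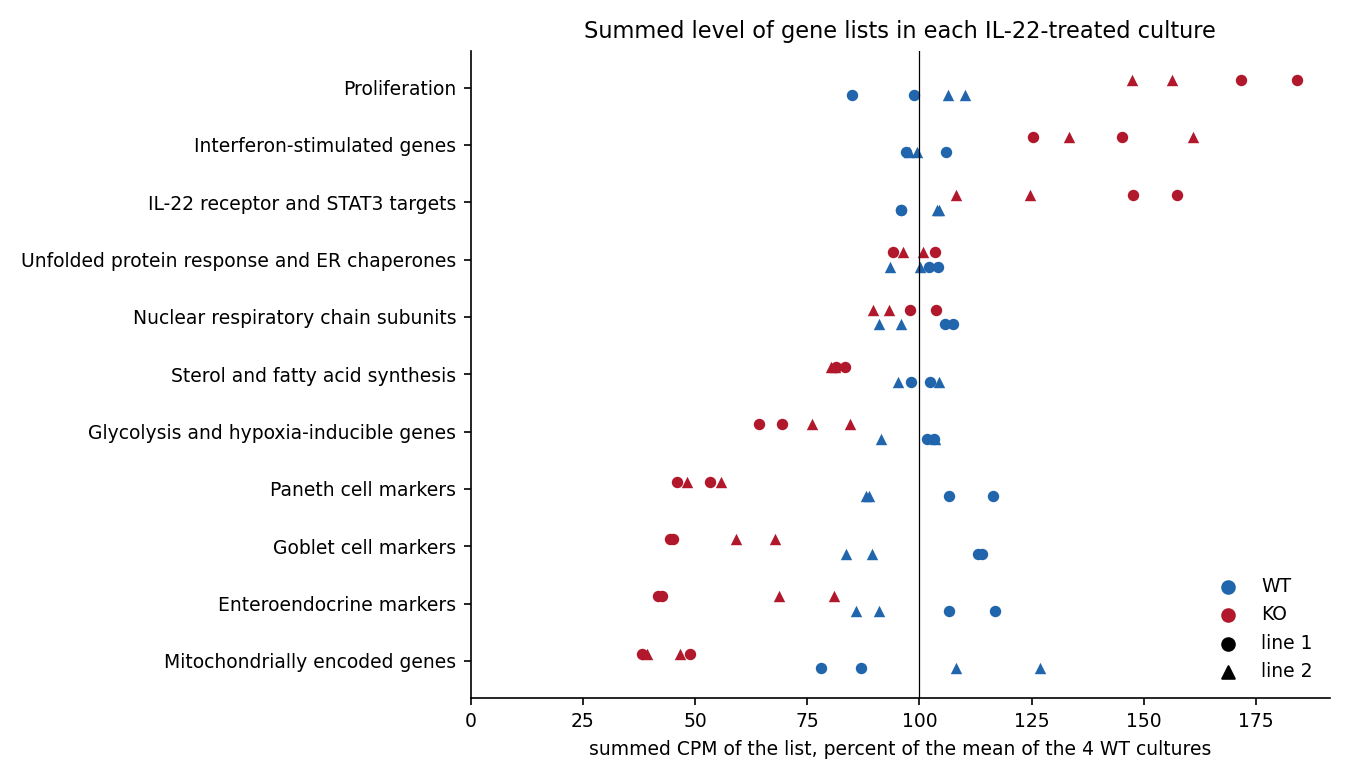
Summed CPM of 11 gene lists in each IL-22-treated culture, as a percent of the mean of the 4 WT cultures (horizontal axis), KO in red and WT in blue, circles for line 1 and triangles for line 2. The sums of proliferation genes, interferon-stimulated genes and IL-22 targets are higher in every KO culture, those of Paneth, goblet and enteroendocrine markers, glycolysis, sterol synthesis and mitochondrially encoded genes are lower in every KO culture, and those of the unfolded protein response and of nuclear respiratory chain genes overlap.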

How the data were processed

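RNA was sequenced from 16 small intestinal organoid cultures. The study's methods name a total RNA stranded kit (TruSeq) and the labels TrueSeq RNA v2, so that neither the RNA selected nor the strandedness is settled. Per the study's methods, the authors trimmed reads with cutadapt, aligned them to mm10/GRCm38 with TopHat2 and assigned them to genes with HTSeq. The deposited file holds the resulting raw counts. Versions, annotation release and the strand setting of the counting are not given in the sources used here, so reads of overlapping antisense partners cannot be told apart. Reads on no gene (38.0% to 39.6% of the IL-22-treated libraries), at several places (22.6% to 24.2%) or ambiguous were left out.

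Gene positions and symbols come from GENCODE M21 and promoters from RefSeq (GRCm38.p6). All 16 libraries were fitted with edgeR 4.0.16 in R 4.3.3 (TMM scaling, quasi-likelihood test, 4 groups of genotype and treatment), after edgeR's filterByExpr removed genes with low counts (12559 of 49585 kept), and p-values were adjusted by the Benjamini-Hochberg method. The common biological coefficient of variation was 0.115. CPM were computed from the counts and TMM-scaled library sizes, errors are SE of the fit, and intervals of ratios are exact Clopper-Pearson intervals that cover counting error only. P-values measure the spread between these cultures, 2 per line, which may be technical in part. An exact permutation test of 4 against 4 cultures cannot give a p under 0.0286. Deviations of the organoid lines from their genotype mean correlated between IL-22-treated and untreated cultures (r = 0.41 in KO and 0.58 in WT), so the interaction was also fitted with the line as a block. DESeq2 1.42.0, limma 3.58.1 and the other alternatives are given in the closing section. The fit was also run on simulated counts with known changes. These were drawn independently for each culture, so the run could not test the effect of cultures that share a line.

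Named genes were Atg16l1, the 15 higher and 15 lower called genes with the largest fold changes and no overlap (at least 5 CPM in the higher group, no predicted gene models), the 5 per direction with the highest level and an absolute log2 fold change of at least 1, up to 6 called members per list by p, defining members, genes named in the study, interaction genes and members of counts of 5 or fewer, of which the text describes a part. Genes, lists and tests were chosen with earlier results of these data known, and some genes stand in more than 1 list.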

Additional observations from a re-analysis of the deposited data

Results flagged for a closer look

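A culture stood far from the other 3 of its group, by Dixon's test at the 95% level, in 13 of 344 groups of 4 values tested over the genes and list sums described (3.78%), where chance gives about 1 in 20. Among KO cultures these were the second culture of line 1 for Atg16l1 (5.96 CPM) and for Pyroxd2 (0.284 CPM, a single read where the others had none), the first culture of line 1 for Olfm4 (300.1 CPM, highest), Atg9a (18.6 CPM, lowest) and Edem1 (116 CPM, highest), and the first culture of line 2 for Hyou1 (299 CPM, lowest). Among WT cultures they were the first culture of line 1 for Cdc20 (43.2 CPM) and Tnfrsf19 (34.4 CPM), its second culture for Tmem173 (36.0 CPM), the first culture of line 2 for H2-Q10 (118 CPM) and Mavs (66.1 CPM), all highest, and the second culture of line 2, lowest, for Ldha (5303 CPM) and for the summed glycolysis and hypoxia genes (37791 CPM).

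The genotype effect differed with treatment for Gpx2 (interaction -0.89 on the log2 scale, adjusted p = 0.00724 by edgeR's quasi-likelihood test) and for Mptx2 (interaction 3.44, adjusted p = 0.00958).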

How the results depend on the processing

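Against 1243 higher and 1236 lower genes, the counts moved by more than 1.5 times when the cultures of each line were summed (56 and 132, with 7.584% of the calls kept and fewer libraries in the fit), with adjusted p under 0.05 (2096 and 2031), without KO line 1 (400 and 550) and, for the higher genes, without WT line 1 (760). Leaving out 1 IL-22-treated culture at a time gave 881 to 1348 higher and 868 to 1313 lower genes, both lowest without KO_IL22 replicate 2. The other settings stayed within 1.5 times: DESeq2 gave 1179 and 1372, limma-voom 885 and 937, the IL-22-treated cultures alone 912 and 952, and counts thinned to 2135000 per library 907 and 995. No called gene named in the text changed direction under any alternative run, while 5 uncalled ones turned in sign (Gpx2 and Hif1a without KO line 1, Mptx2 without KO line 2, Ripk1 without WT line 2 and Tbk1 without WT line 1). Among the genes called with IL-22, the interaction passed for 0 genes, 47 with the organoid line as a block (a pairing of treatments within a line) and 9 by DESeq2. Culture numbers between KO and WT lines shared only a number (r = -0.049 to 0.029), and the replicate block on them gave 1156 and 1116. Where a group sums to a few counts, as for Nrn1, Pyroxd2 and Cyp24a1, depth limits the fold change to the interval given.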

Other observations

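Of 38 cytoskeletal and adhesion genes, 9 were higher and 3 lower (31.6% called, beside 19.7% of all genes), at a median log2 fold change of -0.11. Higher and lower members numbered 6 and 11 without KO line 2 and 3 and 1 without KO line 1. Their summed level was 15424 to 20769 CPM in KO and 19669 to 22426 CPM in WT cultures, which overlapped. Tubb5, a β-tubulin of dividing cells, stood at 645, 649, 599 and 611 CPM in KO and 433, 389.8, 428 and 448 CPM in WT cultures (log2 fold change 0.56, SE 0.10, adjusted p = 0.000326) and lost the call without KO line 1 (adjusted p = 0.0136), and Tubb2b rose by 1.04 on the log2 scale (adjusted p = 1.29e-05). Fn1, fibronectin of the extracellular matrix, stood at 27.9, 25.3, 12.4 and 17.7 CPM in KO and 1.98, 3.04, 5.44 and 3.296 CPM in WT cultures (log2 fold change 2.48, SE 0.28, adjusted p = 4.58e-06).

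Markers of foetal or regenerating epithelium gave 2 higher and 3 lower members of 15 (33.3% called, beside 19.7% of all genes). Clu, the secreted chaperone clusterin, stood at 98.8, 80.1, 88.9 and 118 CPM in KO and 37.6, 41.1, 41.9 and 45.2 CPM in WT cultures (log2 fold change 1.21, SE 0.19, adjusted p = 8.88e-05), and Anxa1 was the other higher gene (log2 fold change 0.78; lost under 13 of the alternatives run, adjusted p up to 0.226). The lower ones were the EGF receptor ligands Ereg (-1.51) and Areg (-0.86) and the surface protein Msln (-1.10), of which Areg and Msln lost the call without KO line 1 (adjusted p = 0.106 and 0.143). Of 32 genes of fatty acid oxidation, 3 were higher and 6 lower (28.1% called, beside 19.7% of all genes). The dehydrogenases Acadl and Acadm went in opposite directions (log2 fold changes 0.95 and -0.44, the latter not called without KO line 1, adjusted p = 0.0164). Of the brush border list, the protease Mep1a stood at 9.72, 5.397, 6.35 and 6.08 CPM in KO and 26.1, 22.2, 20.5 and 19.2 CPM in WT cultures (log2 fold change -1.69, SE 0.19, adjusted p = 3.94e-06).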
